A study of Oryza sativa with 4 samples.

Results

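The 8 ascorbate peroxidase genes of rice, APX1 to APX8, were followed in 4 RNA-seq libraries of seedling shoots. They were taken by gene identifier from the 55985 genes listed for each library, and all 8 were present and passed the filter on low values used for testing (at least 1 RPKM in at least 2 libraries). APX1 (LOC_Os03g17690) and APX2 (LOC_Os07g49400) are the cytosolic members, APX3 (LOC_Os04g14680) and APX4 (LOC_Os08g43560) the peroxisomal members, and APX5 (LOC_Os12g07830), APX6 (LOC_Os12g07820), APX7 (LOC_Os04g35520) and APX8 (LOC_Os02g34810) the organellar members. Nipponbare, of subspecies japonica, and 93-11, of subspecies indica, were each sampled untreated and after 33 h of chilling at 4 °C, at 15 days of age. Plants came from a greenhouse with flooded soil, and the aerial parts of each group were pooled into 1 library, so there are no replicates within a group, and how many plants a pool held is not stated. Neither cultivar carried a transgene or mutation named in the labels.

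Ascorbate peroxidases reduce hydrogen peroxide to water with ascorbate as the electron donor. The oxidised ascorbate is recovered by monodehydroascorbate reductase, dehydroascorbate reductase and glutathione reductase, and the whole loop is known as the ascorbate-glutathione cycle. In leaves, much hydrogen peroxide arises in chloroplasts from photosynthetic electron transport and in peroxisomes from photorespiration, and chilling in the light is known to raise the load on these enzymes. Plants keep separate isoforms for the cytosol, the peroxisomal membrane, the chloroplast stroma and thylakoids, and the mitochondria.

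Library totals, recovered from the values, ran from 12671333 to 16682882 reads, and the family took between 12768 and 25815 of them. Levels are given as RPKM (reads divided by gene model length and library total), with libraries brought to a common scale by TMM, a trimmed mean of log ratios. The 2 Rubisco small-subunit genes RBCS-A and RBCS-C, which mark green tissue, were at 3783 RPKM or more in all libraries (the leaf list summed to 8544 RPKM in chilled 93-11, the lowest, and 27759 in untreated 93-11, the highest), while the 4 root loci of the marker list summed to at most 8.29 RPKM and the shoot meristem genes OSH1 and OSH15 had at most 2 reads. The antenna gene CAB1R, another green tissue marker, was at 3899 and 4740 RPKM in untreated Nipponbare and 93-11 but at 14.8 and 57.3 in the chilled libraries. Its part in the results below was not tested. A set of 10 top genes held 4.67 percent of the reads after chilling in either cultivar, against 9.09 (Nipponbare) and 10.6 percent (93-11) without it. In pooled tissue, fewer cells of a type and less RNA per cell cannot be told apart.

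The family was dominated by 4 genes. APX8, APX4, APX2 and APX1 together held nearly all of the summed APX level in every library, and each lay above at least 88.0 percent of the genes detected in it. APX3, APX5, APX6 and APX7 stayed at or below 15.5 RPKM throughout. In untreated Nipponbare the order by RPKM was APX8, APX2, APX4, APX1, APX6, APX7, APX3 and APX5. In untreated 93-11 it was the same but for APX7 above APX6, and the levels of APX2 and APX4 there differed by less than counting error (log2 ratio 0.02, 95% interval -0.03 to 0.08). APX2 held the second place in the untreated library and the fourth in the chilled library of both cultivars. The order in chilled Nipponbare was APX8, APX1, APX4, APX2, APX6, APX7, APX3 and APX5, where APX6, APX7 and APX3 were not separable as neighbours at this depth. In chilled 93-11, APX4 and APX8 came first with levels within counting error of each other (log2 ratio 0.03, interval -0.03 to 0.08), followed by APX1, APX2, APX6, APX7, APX3 and APX5, with APX6 and APX7 also within counting error.

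**Figure D1:**
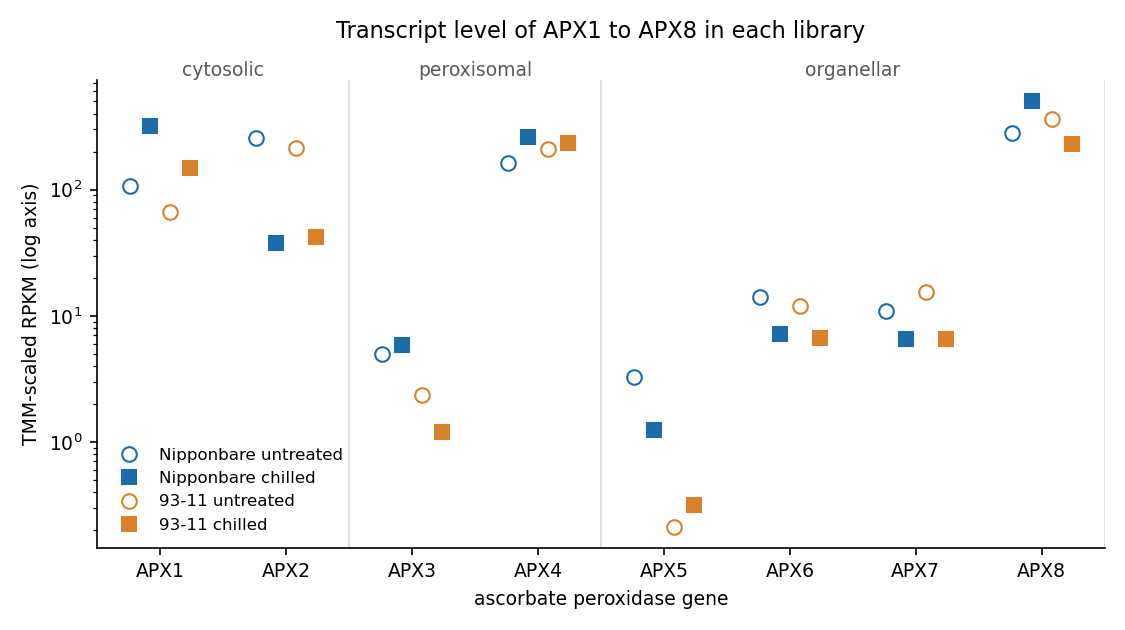
TMM-scaled RPKM (log axis) of each ascorbate peroxidase gene, grouped by compartment, with 1 point per library (open circles untreated, filled squares chilled, blue Nipponbare, orange 93-11). APX1 is higher and APX2 lower in both chilled libraries, while the chilled points of APX8 lie above the untreated one in Nipponbare and below it in 93-11.

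The comparison of chilled with untreated libraries estimated the mean change of each member over the cultivars, not a change in each of them. It takes in any difference between these pools, time of sampling included, and causes were not tested. It was fitted with limma on log2(RPKM + 1) over all genes, with terms for treatment and cultivar, with Benjamini-Hochberg adjustment over 19466 genes. Fold changes on that scale understate the change of low genes. Of the 8 members, 1 rose and 3 fell, where 46.6 percent of all genes tested were called (23.6 percent higher and 22.9 percent lower). Of these calls 50.7 percent were higher, a split that depended on the scaling: 39.7 percent with values as deposited, 38.0 with upper quartile scaling and 67.9 when scaled to reference genes. The share of members called was therefore close to that of all genes, and the median change was -0.30 for the members against -0.06 for all genes. By compartment, 1 of 2 cytosolic genes rose and 1 fell, 0 of 2 peroxisomal genes passed the test, and 0 of 4 organellar genes rose and 2 fell. Within a cultivar no test was possible. There the log2 ratio of scaled reads is given with an exact 95% counting interval, which covers counting error only.

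The cytosolic pair moved in opposite directions. APX2 was at 255 RPKM in untreated and 38.0 in chilled Nipponbare, and at 214 and 41.8 in 93-11. Both chilled values lay far below both untreated values. How many of all genes separate by treatment in this way was not determined, here or for the members below. APX2 fell by 2.52 on the log2 scale (SE 0.23, limma adjusted p = 0.00179), and the call held under all 9 alternative settings. The ratio within Nipponbare was -2.74 on the log2 scale (interval -2.86 to -2.63), a 6.70-fold lower level, and within 93-11 -2.35 (-2.47 to -2.24), 5.11-fold lower. APX1, the other cytosolic isoform, was at 107 RPKM in untreated and 317 in chilled Nipponbare, and at 66.8 and 149 in 93-11. Both chilled values were above both untreated ones. APX1 rose by 1.35 ± 0.24 (SE, limma adjusted p = 0.00977), a call lost without the cultivar term (adjusted p = 0.0981). Its log2 ratio was 1.57 (1.49 to 1.65) in Nipponbare and 1.16 (1.06 to 1.26) in 93-11.

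A ratio of 2 genes within a library does not depend on the scaling between libraries. Per length, APX2 stood 2.38-fold above APX1 in untreated Nipponbare and 3.20-fold above it in untreated 93-11. In the chilled libraries APX1 was the higher gene, 8.34-fold in Nipponbare and 3.57-fold in 93-11. The log2 ratio of APX1 to APX2 therefore shifted by 4.31 (counting interval 4.18 to 4.45) in Nipponbare and by 3.51 (3.37 to 3.66) in 93-11. The summed cytosolic level was 362 RPKM in untreated and 355 in chilled Nipponbare, and 280.5 and 191 in 93-11. Its log2 ratio in Nipponbare had no stable sign, at -0.03 here, -0.37 with values as deposited, -0.36 with upper quartile scaling, 0.02 with median of ratios scaling and 0.35 when scaled to reference genes. In 93-11 it was -0.55, and below 0 under all 5 scalings (-0.86 to -0.12).

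**Figure D2:**
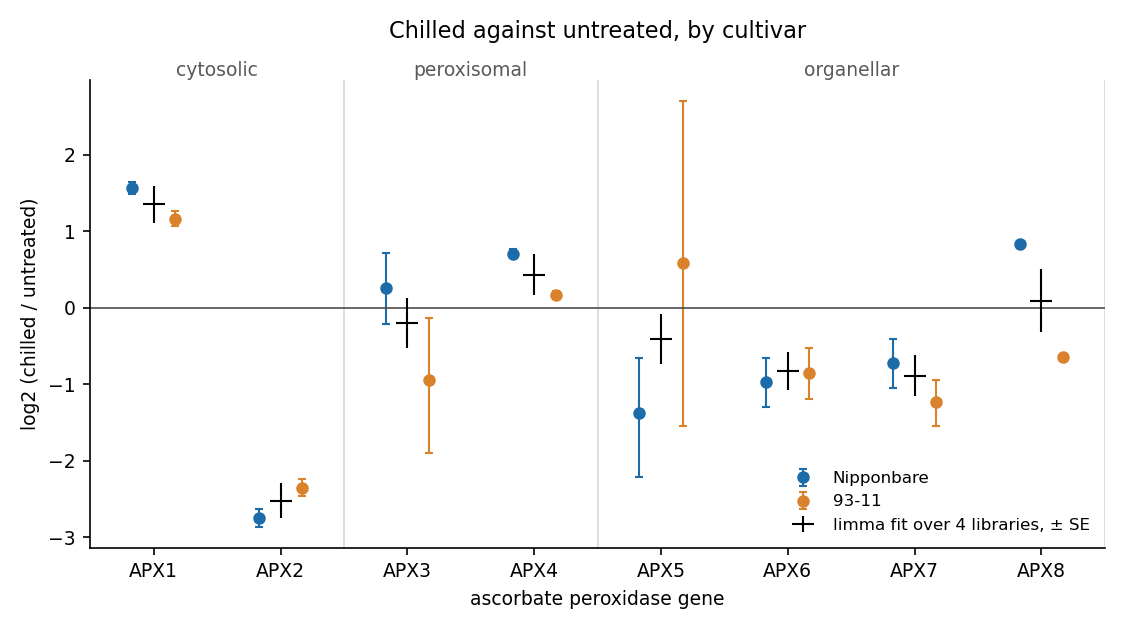
Log2 ratio of chilled to untreated scaled reads for each gene in Nipponbare (blue) and 93-11 (orange) with 95% counting intervals, and the limma estimate over 4 libraries with its SE (black). APX1 lies above 0 and APX2, APX6 and APX7 below 0 in both cultivars, while APX8 is at 0.83 in Nipponbare and -0.65 in 93-11.

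Of the peroxisomal genes, which encode enzymes held in the peroxisomal membrane, neither passed the test. APX4, the abundant one, was at 161 RPKM in untreated and 262 in chilled Nipponbare, and at 210 and 235 in 93-11. Each chilled library was the higher of its cultivar, by far more in Nipponbare, and the lowest chilled value was above both untreated values. With values as deposited this did not hold in 93-11 (223 RPKM untreated, 214 chilled). The fitted change was 0.43 ± 0.27 (SE, limma adjusted p = 0.235). It was called only when values were scaled to reference genes (0.84, adjusted p = 0.044). The log2 ratio was 0.70 (0.64 to 0.76) in Nipponbare and 0.16 (0.11 to 0.22) in 93-11, and the latter was below 0 with values as deposited (-0.056) and with upper quartile scaling (-0.14). APX3 was far lower. It had 81 reads in each Nipponbare library (4.95 RPKM untreated, 5.90 chilled), and 47 in untreated and 16 in chilled 93-11 (2.36 and 1.20 RPKM). The Nipponbare values were higher than those of 93-11 under either treatment. Its fitted change with chilling was -0.20 ± 0.32 (SE, limma adjusted p = 0.641). APX4 exceeded APX3 per length by 32.4-fold in untreated Nipponbare and by 190-fold in chilled 93-11, the lowest and highest values of the 4 libraries.

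The organellar genes split into the abundant APX8 and 3 low members. APX8, known as the thylakoid-bound chloroplast isoform, was at 283 RPKM in untreated and 503 in chilled Nipponbare, and at 363 and 231 in 93-11. The chilled libraries thus held both the highest and the lowest value of the 4. The log2 ratio was 0.83 (0.79 to 0.87) in Nipponbare and -0.65 (-0.70 to -0.60) in 93-11, and these opposite signs were the same under all 5 scalings compared. The fitted change over both cultivars was 0.09 ± 0.41 (SE, limma adjusted p = 0.873). That estimate averages opposite responses, and its sign turned with values as deposited (-0.19) and with upper quartile scaling (-0.23).

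APX7, known as the stromal chloroplast isoform, was at 10.9 RPKM in untreated and 6.57 in chilled Nipponbare, and at 15.5 and 6.56 in 93-11. APX6, a second low organellar isoform, was at 14.1 and 7.16 RPKM in Nipponbare and at 11.97 and 6.62 in 93-11, untreated and chilled. For both genes the 2 chilled values were close together and below both untreated values. APX7 changed by -0.89 ± 0.27 (SE, limma adjusted p = 0.0431) and APX6 by -0.83 ± 0.25 (adjusted p = 0.0424). Both calls lay near the threshold: APX7 was called under 6 of 9 alternatives (adjusted p from 0.0169 to 0.162) and APX6 under 5 of 9 (0.0161 to 0.186). Their direction was the same in both cultivars and under all 5 scalings. Relative to the median of all genes, the change ranged from -0.93 to -0.78 for APX7 and from -0.85 to -0.71 for APX6 over all settings.

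APX5, the least abundant member, had 63 reads in untreated and 20 in chilled Nipponbare, and 5 reads in each 93-11 library. These were 3.27, 1.24, 0.21 and 0.32 RPKM in that order (93-11 untreated before chilled). The log2 ratio in Nipponbare was -1.38 (-2.21 to -0.66), whereas in 93-11 its interval ran from -1.54 to 2.70, so a change in 93-11 was not detectable at this depth. The fitted change was -0.41 ± 0.33 (SE, limma adjusted p = 0.351). APX5 and APX6 are neighbours on chromosome 12 with 0 annotated genes between them in the RefSeq table, and reads shared by close family members could be split or dropped in counting. Single values of such pairs are uncertain to that extent.

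By size, a member counted as beyond 2-fold when its whole counting interval lay there. In Nipponbare this held for APX1 (higher) and APX2 (lower), and in 93-11 for the same genes. Of all genes tested, 36.7 percent were beyond 2-fold in Nipponbare (19.2 percent higher, 17.5 percent lower) and 36.4 percent in 93-11 (19.6 percent higher, 16.8 percent lower). In 93-11 APX1 left this class with values as deposited and with upper quartile scaling, and APX7 entered it on the lower side. The shares of all genes are those with TMM scaling and were not determined for other scalings.

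The compartments took different shares of the summed APX RPKM. The cytosolic genes held 43.1 percent in untreated and 31.1 percent in chilled Nipponbare, and 31.7 and 28.4 percent in 93-11. The peroxisomal genes held 19.8 and 23.5 percent in Nipponbare and 24.05 and 35.2 percent in 93-11. The organellar genes held 37.1 and 45.4 percent in Nipponbare but 44.2 and 36.4 percent in 93-11. The cytosolic share was thus lower and the peroxisomal share higher in both chilled libraries, while the organellar share moved up with chilling in Nipponbare and down in 93-11. APX2 alone went from 30.4 to 3.33 percent of the family in Nipponbare and from 24.2 to 6.21 percent in 93-11, and APX1 from 12.7 to 27.8 and from 7.56 to 22.2 percent. These shares were not tested. An exact permutation of 2 libraries against 2 cannot go below p = 0.333. The family sum was 839 RPKM in untreated and 1141 in chilled Nipponbare, and 884 and 672 in 93-11, log2 ratios of 0.44 and -0.39. Both ratios depended on the scaling. That of Nipponbare ran from 0.10 with values as deposited to 0.82 when scaled to reference genes. That of 93-11 ran from -0.70 with upper quartile scaling to 0.04 when scaled to reference genes.

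**Figure D3:**
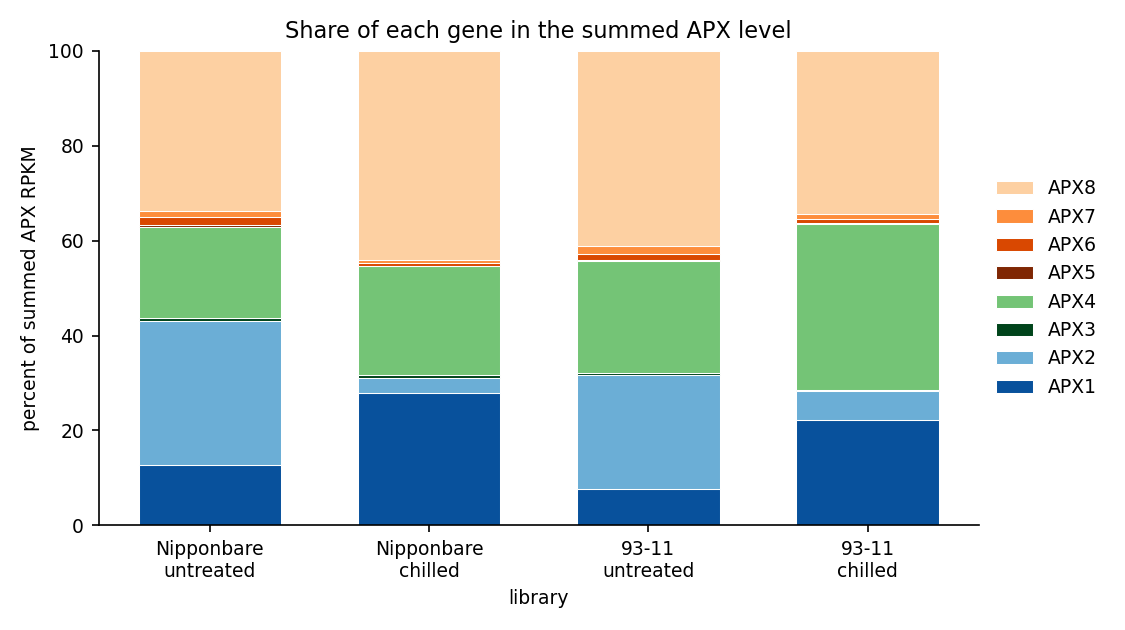
Percent of the summed APX RPKM held by each gene in each library (stacked bars, cytosolic genes blue, peroxisomal green, organellar orange). The APX2 band shrinks from 30.4 to 3.33 percent in Nipponbare and from 24.2 to 6.21 percent in 93-11, and the APX1 band widens in both.

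Differences between the cultivars were fitted as the second term of the same model. No member passed: 0 of 8 were called by limma, against 5.87 percent of all genes (1.66 percent higher and 4.21 percent lower in 93-11), while 3 (APX1, APX3 and APX5) had an unadjusted p under 0.05. With voom on the recovered reads 1 member, APX5, was called. The shares of all genes with an unadjusted p under 0.05, or called with voom, were not determined. These counts therefore have no background to be read against. APX5 differed by -1.29 (93-11 minus Nipponbare, log2(RPKM + 1) scale, SE 0.33, limma adjusted p = 0.11), and both 93-11 values were below both Nipponbare values. How many of all genes separate by cultivar in this way was not determined. APX5 met the filter only through Nipponbare (as deposited, 3.75 RPKM untreated and 1.12 chilled, against 0.23 and 0.29 in 93-11). Its lower level in 93-11 is thus not independent of the filter. APX3 differed by -1.24 ± 0.32 (SE, limma adjusted p = 0.119) and APX1 by -0.88 ± 0.24 (adjusted p = 0.134), each lower in 93-11 under either treatment. APX2 (-0.06), APX4 (0.11), APX6 (-0.16), APX7 (0.23) and APX8 (-0.38) had smaller fitted differences.

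Between single libraries the largest ratios were those of APX5 in untreated and APX3 in chilled plants. APX5 had met the filter only through the Nipponbare libraries. In untreated plants APX5 was 14.0-fold lower in 93-11 than in Nipponbare (log2 ratio -3.81, counting interval -5.61 to -2.64), the 1 member beyond 2-fold there, against 9.45 percent of all genes (3.1 percent higher, 6.35 percent lower). In chilled plants APX3 (4.79-fold lower, log2 ratio -2.26, -3.17 to -1.51), APX8 (2.17-fold lower, -1.12, -1.17 to -1.07) and APX1 (2.12-fold lower, -1.09, -1.16 to -1.01) were beyond 2-fold, against 14.1 percent of all genes (6.13 percent higher, 7.97 percent lower). APX8 had been 1.28-fold higher in 93-11 without chilling. The sources do not state the genome to which 93-11 reads were mapped, so a lower transcript level in 93-11 and a lower share of its reads mapped to a gene cannot be told apart. It bears on APX1, APX3 and APX5, whose 93-11 values were below those of Nipponbare beyond counting error under both treatments.

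**Figure D4:**
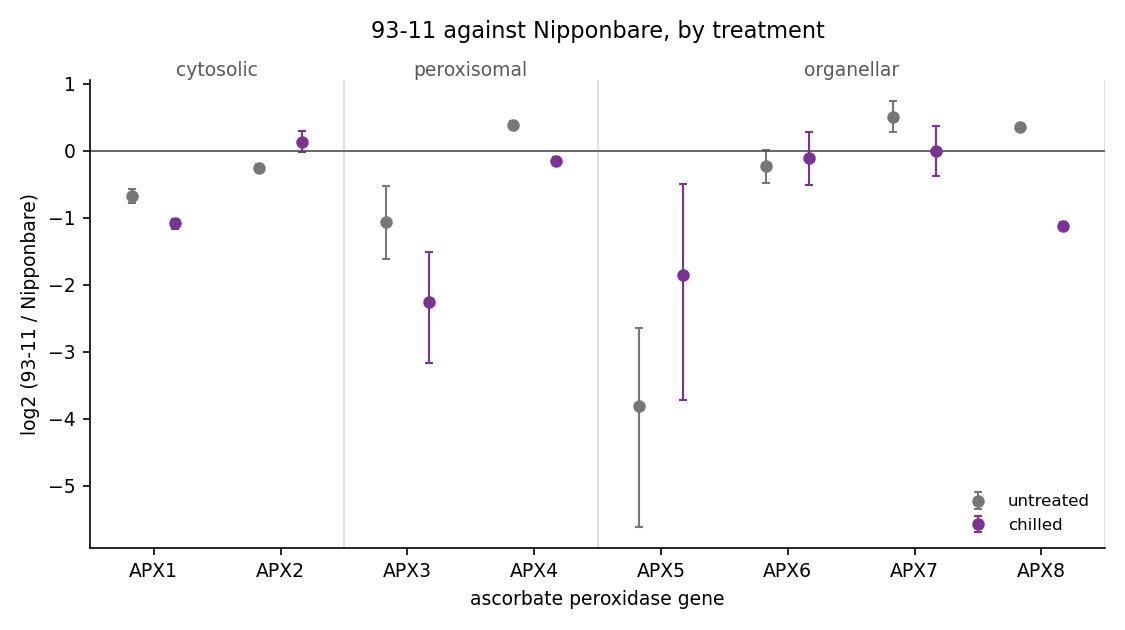
Log2 ratio of 93-11 to Nipponbare scaled reads in untreated (grey) and chilled (purple) libraries, with 95% counting intervals. APX3 and APX5 are lower in 93-11 under both treatments, and APX8 is at 0.36 untreated and -1.12 chilled.

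The size of the response could be compared between cultivars only against counting error. The difference of the log2 ratios (93-11 minus Nipponbare) was -1.48 for APX8 (interval -1.54 to -1.42), -0.54 for APX4 (-0.62 to -0.46), -0.41 for APX1 (-0.53 to -0.29) and 0.39 for APX2 (0.23 to 0.55). APX7 had -0.51 (-0.93 to -0.08), APX3 -1.20 (-2.12 to -0.28) and APX5 1.96 (0.11 to 3.81). Only for APX6 did the interval include 0 (0.12, -0.33 to 0.57). Such intervals excluded 0 for 46.7 percent of all genes, and they compare libraries, not conditions. For APX1, APX2 and APX4 the ratio lay nearer to 0 in 93-11 than in Nipponbare, and for APX6 the cultivars were within counting error. For APX7 (-0.73 in Nipponbare, -1.23 in 93-11) and APX3 (0.25 and -0.95) it lay farther from 0 in 93-11. The ratios of APX5 (-1.38 and 0.58) and APX8 (0.83 and -0.65) had opposite signs, as did those of APX3. The members thus had no common direction, and the share of all genes nearer to 0 in 93-11 was not determined.

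The genes whose values over the 4 libraries lay nearest to those of APX1 and APX2 were found by Euclidean distance of centred log2(RPKM + 1) among the other 19465 genes tested. For APX1 they were LOC_Os01g01910 (distance 0.07; 11.9 RPKM untreated and 36.3 chilled in Nipponbare, 7.47 and 17.6 in 93-11) and LOC_Os04g57440 (distance 0.14). For APX2 they were LOC_Os06g20040 (distance 0.03; 21.3 and 2.35 RPKM in Nipponbare, 17.9 and 2.78 in 93-11) and LOC_Os02g48470 (distance 0.07). Both neighbours of APX1 were higher and both neighbours of APX2 lower in the chilled libraries, as this choice requires, and with 4 libraries many genes share a profile.

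The enzymes that feed and renew ascorbate also went both ways. Of 10 loci listed for ascorbate recycling, 9 were measured, of which 2 rose and 4 fell (median -0.61). Of the 2 that rose, LOC_Os10g28000 met the filter only through the chilled libraries, so its rise is not independent of the filter. It was at 0.41 RPKM in untreated and 2.47 in chilled Nipponbare, and at 0.76 and 3.96 in 93-11. Its call ended with no filter (limma adjusted p = 0.0578). MDAR2, a monodehydroascorbate reductase gene, was at 88.3 RPKM in untreated and 57.5 in chilled Nipponbare and at 105 and 53.0 in 93-11, a change of -0.79 ± 0.23 (SE, limma adjusted p = 0.037). MDAR5, another gene of this enzyme, changed by -1.02 ± 0.26 (adjusted p = 0.0278). The MDAR2 call ended when scaled to reference genes (adjusted p = 0.188), with no filter (0.0642) and with no trend (0.0529), and the MDAR5 call when scaled to reference genes (0.0952). MDAR1, also of this enzyme, stayed under the filter, with 10 to 35 reads. RGRC2, which encodes glutathione reductase, had -0.12 ± 0.27 (adjusted p = 0.736). The other 6 loci of this list were not matched to a symbol in the RefSeq table. Among them was the largest change of the list: LOC_Os08g44340 was at 18.3 RPKM in untreated and 327 in chilled Nipponbare and at 16.2 and 293 in 93-11, a rise of 4.09 ± 0.21 (SE, limma adjusted p = 0.000772) that was called under all 9 alternatives. The largest fall was that of LOC_Os05g02530 (-1.95 ± 0.27, adjusted p = 0.00466), also called under all 9.

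Of 11 loci listed for ascorbate synthesis, all measured, 2 rose and 3 fell (median 0.04). GME-1 and GME-2 encode GDP-mannose epimerases, which act early in this pathway, and they moved in opposite directions. GME-1 was at 57.7 RPKM in untreated and 452 in chilled Nipponbare and at 47.1 and 237 in 93-11, a rise of 2.63 ± 0.26 (SE, limma adjusted p = 0.00218). GME-2 was at 51.2 and 22.1 RPKM in Nipponbare and at 62.2 and 31.9 in 93-11, a change of -1.06 ± 0.21 (adjusted p = 0.0141). GLDH1, which encodes L-galactono-1,4-lactone dehydrogenase of the last step, changed by -0.93 ± 0.23 (adjusted p = 0.0258) from few reads (4 to 30). It was at 1.70 RPKM in untreated and 0.45 in chilled Nipponbare, and at 1.56 and 0.31 in 93-11. GLDH1 thus met the filter only through the untreated libraries, and its fall is not independent of the filter. When scaled to reference genes neither GME-2 (-0.66, adjusted p = 0.0542) nor GLDH1 (-0.75, 0.0553) was called, and GLDH1 was also not called with no filter (0.0988) and without the cultivar term (0.0603). GLDH2 (-0.75, adjusted p = 0.0648) and the phosphomannomutase gene PMM (-0.20, adjusted p = 0.576) did not pass. Of 9 loci listed as thiol peroxidases, which reduce peroxides with thiols in place of ascorbate, 8 were measured, of which 2 rose and 3 fell (median -0.004). The remaining thiol peroxidase locus, R1C-Prx, had at most 2 reads. A single locus listed as related to ascorbate peroxidases rose (1.03, limma adjusted p = 0.0193). All these shares stand beside 46.6 percent called among all genes.

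**Figure D5:**
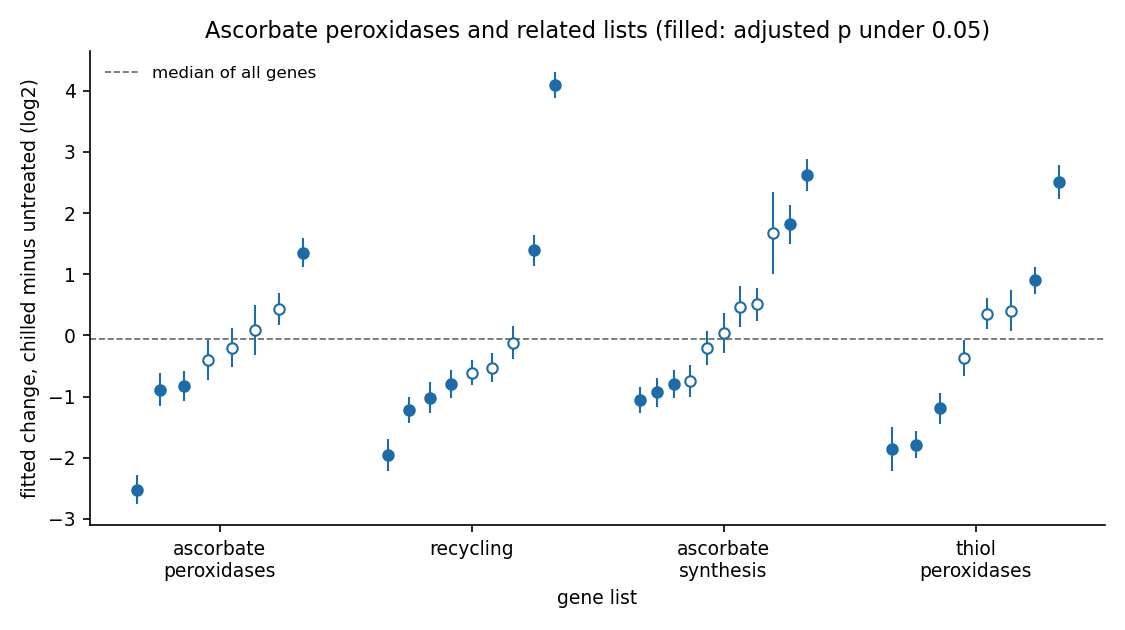
Fitted change with chilling (log2, ± SE, limma over 4 libraries) of each measured gene, sorted within its list, with filled points for adjusted p under 0.05 and a dashed line at the median of all genes. The recycling, synthesis and thiol peroxidase lists each hold genes that rose and genes that fell.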

How the data were processed

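Messenger RNA of pooled aerial parts was sequenced, per the labels' protocols, and per the submitters' processing notes the tools included HTSeq 0.5.4p3, TopHat2 2.0.9 and Bowtie2 2.0.6, whose roles are not listed. Genome build, annotation and strand use: not given in the sources used here. The deposited values are RPKM, a unit inferred from the values: 1 library total each and 1 whole length a gene turned the values of all 36941 genes above 0 into whole reads, against 1 of 200 deep genes with totals shifted by about 1 percent. Reads are known up to a common factor and summed to 97.7 to 98.1 percent of the totals. Intervals reflect counting error alone, because each group is 1 library. They take reads as independent, which PCR copies of 1 molecule are not, so they may be too narrow.

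From these values the TMM factors (trim 0.3 and 0.05, genes past the filter) and the limma 3.58.1 fit (R 4.3.3; intensity trend, pseudocount 1 RPKM, 1 residual degree of freedom, prior worth 4.26) were computed, with calls under an adjusted p of 0.05. Each group was 1 pool, so the p-values do not measure a spread between pools of a condition. In the fit a gene's own spread is the disagreement of the cultivars' responses to chilling, weighted with the prior drawn from all genes tested. On simulated data of this design (19540 genes), 36 of 67 genes changed by 1 log2 unit were called, 63 of 64 changed by 2, and 35 of 19346 unchanged ones. The simulated cultivars had equal means and equal responses, few genes changed, and the dispersion (spread beyond counting) was set to 0.02. The real libraries differ in these points, so the simulation does not give the error rates of the real calls. Ratios had 0.5 reads added.

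All 8 members are named. Of the other lists, genes called or of the recycling list are named only where the RefSeq table (ASM3414082v1), which holds 0 of the identifiers, has the symbol on that chromosome at the matching place in the order of genes, as it does for 10 of 31 loci and for all members. The others are counted, and the recycling loci of largest rise and fall, and LOC_Os10g28000, are given by identifier. No promoter or protein sequences were used here. Likeness was taken for the called members of largest rise and fall. Members and lists were chosen with earlier results of these data known. The alternatives were 4 other scalings, a pseudocount of 0.1, no filter, no cultivar term, no trend and, added after seeing the data, voom on the recovered reads.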

Additional observations from a re-analysis of the deposited data

Results flagged for a closer look

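The chilled-to-untreated ratios of 3 of 8 members had opposite signs in the cultivars, as did those of 16.4 percent of all genes tested. Each cultivar has 1 pool per treatment, so the difference was not tested. For APX8 the response was 1.48 lower in 93-11 on the log2 scale (difference -1.48), with 11197 and 7503 reads in chilled and untreated Nipponbare and 4995 and 11707 in 93-11, and the signs stayed opposite under all 5 scalings. For APX3 the difference was -1.20. The ratio in Nipponbare (0.25, counting interval -0.21 to 0.71) was not distinguishable from 0 and was below 0 with values as deposited (-0.09) and with upper quartile scaling (-0.08). For APX5 it was 1.96, with 5 reads in each 93-11 library.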

How the results depend on the processing

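APX2 was called lower under all 9 alternatives. Without the cultivar term the calls ended for APX1 (1.35, adjusted p = 0.0981), APX6 (-0.83, 0.0565) and APX7 (-0.89, 0.0694), leaving 0 members higher and 1 lower. With no filter those of APX6 (-0.83, 0.0641) and APX7 (-0.89, 0.066) ended, leaving 1 lower. Scaled to reference genes, APX6 (-0.46, 0.186) and APX7 (-0.52, 0.162) were not called, APX4 was (0.84, 0.044), and APX3 turned to 0.10, so that 2 were higher and 1 lower. With median of ratios scaling APX6 was not called (-0.78, 0.0504). APX8 turned to -0.19 with values as deposited and -0.23 with upper quartile scaling. With voom the cultivar difference of APX5, which met the filter only through Nipponbare, was called (-2.95, adjusted p = 0.0221). The cause of these changes was not tested. Scaling moved the median of all genes by -0.22 (deposited), -0.25 (upper quartile) and 0.31 (reference genes). Of the reference genes, ACT1 was itself lower after chilling (59.6 RPKM untreated and 24.4 chilled in Nipponbare, 63.3 and 25.4 in 93-11, TMM-scaled). LOC_Os03g08020 (37.0 and 37.7, 35.3 and 43.4) and GAPC1 (262 and 287, 291 and 237) moved less. The part of ACT1 in the calls that changed under this scaling was not tested. Over all genes, 2845 were lower when scaled to reference genes and 2742 without the cultivar term, against 4464.

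Of recycling genes 1 rose with no filter and 2 fell when scaled to reference genes. Of synthesis genes 1 rose and 1 fell with no filter, and 0 fell when scaled to reference genes, where the GME-2 and GLDH1 calls ended. Of thiol peroxidases 1 rose with values as deposited, with upper quartile scaling and with no filter, and 1 fell without the cultivar term. By size, 3 members were higher in Nipponbare when scaled to reference genes, and in 93-11 0 were higher and 2 lower with values as deposited and with upper quartile scaling. The ratio of APX4 in 93-11 turned to -0.056 and -0.14 under these. Shares of all genes beyond 2-fold were determined with TMM scaling only, so the counts by size under other scalings have no background.

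As shares of recovered reads, not per length, cytosolic genes held 24.1 percent in chilled and 38.3 percent in untreated Nipponbare and 22.6 and 27.7 percent in 93-11. Peroxisomal genes held 24.4, 20.4 and (chilled 93-11) 36.5 percent, and organellar genes 51.5, 41.3, 40.9 and 48.1 percent in the order Nipponbare chilled, untreated, 93-11 chilled, untreated. The cultivar term pairs the libraries by cultivar, and the fit without it is the unpaired one. No paired analysis was possible by replicate number, which the labels do not give. Leaving out 1 library leaves no residual degree of freedom, and the chilling value is then the ratio of the intact cultivar. The cultivar difference has no value without the cultivar term.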
